A study of Mus musculus with 9 samples.

Results

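Intragenic lncRNA features are stretches of the mouse genome inside or around annotated genes that the authors listed as long noncoding RNA features, apart from their named genes. They were taken as the rows of the table whose identifier starts with nc_intra_, and there were 1322 of them among 75794 features. The other features were 27434 named genes, 42910 intergenic and 4128 antisense lncRNA features. Of the 1322, 141 carry an accession, and for 72 of these it is that of the named gene they overlap most. Polyadenylated RNA from isolated liver nuclei was sequenced from male CD1 mice, an outbred stock. The STAT5ca group had received AAV8-STAT5ca by tail vein at 2e11 genome copies per mouse, and its 5 libraries were 2 taken 4 weeks and 3 taken 6 weeks later. The control group had received vehicle without virus, and its 4 libraries were 2 taken at each time. At death the 4-week animals were aged 11 to 12 weeks and the 6-week animals 13 to 14 weeks. STAT5ca is a constitutively active form of STAT5, and AAV8 is a virus serotype that reaches mainly hepatocytes. Since the controls had no virus, virus and STAT5ca cannot be told apart.

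STAT5b carries the pituitary growth hormone signal to the liver genome, and the way growth hormone is released differs between the sexes, so the factor sets the levels of many sex-biased genes, among them those for cytochromes P450, sulfotransferases and urinary proteins. Nuclear RNA holds transcripts still being made and spliced as well as RNAs that stay in the nucleus. A feature within a gene can therefore hold reads of a separate noncoding transcript or of the gene's own precursor RNA. The library kit keeps the strand, but the counting's strand setting is not given in the sources used here and the table has no strand column, so these 2 kinds of read cannot be told apart in any value below.

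Every level is the authors' RPKM (reads per kilobase of feature, scaled to the size of the library) for a group, with both times pooled. Each fold change is the signed fold of the authors' deposited table, positive where STAT5ca was higher and negative where it was lower. A feature is said to have risen or fallen where its adjusted p in that table, headed as from edgeR, was under 0.05. The totals behind the values were 11823873 to 14863490 reads in STAT5ca and 9489045 to 13144589 reads in control libraries. The 10 hepatocyte marker genes all had 83.7 RPKM or more in both groups and summed to 21789 RPKM in STAT5ca and 12630.5 RPKM in control livers, with 1 risen (Alb) and 1 fallen (Cyp2e1). Alb alone had 14666 RPKM in STAT5ca and 4563 RPKM in control livers, so the higher sum rests on this gene. Some markers of other liver cells changed too. The 6 Kupffer cell and macrophage genes summed to 344 RPKM in STAT5ca and 184 RPKM in control livers, with 2 of 6 risen. The 6 lymphocyte genes summed to 34.7 and 17.9 RPKM, with 1 risen. The 6 stellate cell genes summed to 159.7 and 298 RPKM, with 4 fallen, the 6 endothelial genes to 204 and 292 RPKM, with 2 fallen, and the 5 cholangiocyte genes to 76.3 and 16.9 RPKM, with 1 risen and 1 fallen (STAT5ca first in each pair). Most of the cholangiocyte sum was Spp1, with 73.0 RPKM in STAT5ca and 12.8 RPKM in control livers. The part of this shift in the results below was not tested. In whole liver fewer cells of a type and less RNA per cell cannot be told apart.

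With STAT5ca 50 intragenic features rose (3.78%) and 48 fell (3.63%), together 7.41% of the 1322. The share called over all features was 3.83%, with 2.34% higher and 1.49% lower, and it was 4.92% of antisense features, 2.37% of intergenic features and 5.79% of named genes. Most intragenic features were faint. The median of the mean RPKM over both groups was 0.1, and 228 features were at 0 in both groups. Among the 661 features that averaged 0.1 RPKM or more, 43 rose (6.51%) and 48 fell (7.26%), together 13.8%, against 10.6% over all features at that level (6.34% higher and 4.22% lower). Among the 206 that averaged 1 RPKM or more, 13 rose (6.31%) and 40 fell (19.4%), together 25.7%. Over all features of that level 6.42% were higher and 5.07% lower, together 11.5%, and the share called was 25.4% of antisense features, 22.8% of intergenic features and 1175 of 11699 named genes. At that level the share among intragenic features was thus near that of the other lncRNA classes.

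A feature and its gene fell together in Bcl6, which encodes a transcriptional repressor that is higher in male than in female mouse liver. nc_intra_c16_28090 lies at chr16:23970494-23971133 (mm9) and has 519 bases in 2 intervals. It stands in the gap between the 2 intervals listed for Bcl6, which end at 23970492 and start again at 23971135. The feature had 0.477 RPKM in STAT5ca and 4.49 RPKM in control livers, about 17 and 105 reads over the libraries of each group. Its fold change was -9.43 (adjusted p = 1.21e-09) in the authors' deposited table. Bcl6 itself had 6.93 RPKM in STAT5ca and 28.9 RPKM in control livers, a fold change of -4.42 (adjusted p = 2.83e-09) in the authors' deposited table. Feature and gene fell together, and the difference between their fold changes was not tested.

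The promoters of Bcl6 are shown because gene and feature moved together and because the gene's control by STAT5 is well known. RefSeq gives 2 starts for Bcl6 in GRCm38.p6, each printed here from 250 bases before to 50 bases after the start, on the minus strand (chr16:23988803-23989102 and chr16:23981234-23981533). This build differs from that of the features, so the distance to the feature was not measured. Capitals mark matches to TTCNNNGAA, the palindrome that STAT5 binds, which reads the same on both strands.
Bcl6 start 1: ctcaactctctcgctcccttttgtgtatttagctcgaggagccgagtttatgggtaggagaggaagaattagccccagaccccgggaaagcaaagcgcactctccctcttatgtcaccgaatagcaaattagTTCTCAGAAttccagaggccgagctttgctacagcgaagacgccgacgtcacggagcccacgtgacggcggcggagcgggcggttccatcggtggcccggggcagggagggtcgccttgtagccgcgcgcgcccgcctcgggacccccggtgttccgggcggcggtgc
Bcl6 start 2: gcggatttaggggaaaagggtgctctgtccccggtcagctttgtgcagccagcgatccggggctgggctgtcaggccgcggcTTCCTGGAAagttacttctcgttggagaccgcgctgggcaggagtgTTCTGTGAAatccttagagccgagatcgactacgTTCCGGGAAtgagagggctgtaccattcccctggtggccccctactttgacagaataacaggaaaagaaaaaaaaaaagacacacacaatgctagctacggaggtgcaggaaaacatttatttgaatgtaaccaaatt
The first start has 1 match, whose first base is 118 bases before the start, and the second has 3, at 168, 122 and 88 bases before it. Of all 32851 promoters in the table of the same length, 8.3% hold at least 1 match. Counted by gene, 9.55% of 27025 genes do, and among the hosts of called features it is 6 of the 68 with a promoter in the table (8.82%), namely Bcl6, Cldn14, Glt8d1, Pdcd4, Tsc22d1 and Ttc6. The share among the hosts is thus close to that of all genes. A match is a description of the letters, not evidence of binding.

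The named gene of each feature, called its host here, was the one whose span from first to last listed base overlapped the feature most. By this rule 1233 features had a host, in 748 different genes, and 89 had none. A single gene was overlapped by 1094 features, and the most overlapped by any was 12 genes. The whole feature lay inside its host for 1111 features (84.0%), with a median length of 1101 bases. Of these, 1014 touched no listed interval of any named gene, as for Bcl6. Another 122 were wide features that only partly overlapped a gene and had a median length of 77796 bases. Lengths over all features ran from 74 to 1151273 bases, with a median of 1247, leaving out 2 whose location is cut off in the table. A feature of 1 interval was the commonest form (855), and 369 had 2 intervals.

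The wide features had a larger share of calls, a difference that was not tested. They are far longer and hold more reads at the same RPKM, and the part of read number in this share was not tested. Of the 122, 12 rose and 11 fell (18.9%), against 6.48% of the features that lay wholly inside a gene, of which 35 rose and 37 fell. The called wide features had a median length of 83273 bases, and 20 of the 23 had under 10% of their bases inside their host. They covered 50 named genes, of which 16 rose and 18 fell. Of the 12 that rose, 9 had a host that rose, and of the 11 that fell, 8 had a host that fell. No called feature of either kind had a host called in the opposite direction. Genes in these clusters have near-identical copies, and how reads shared by copies were counted is not given in the sources used here, so values of single genes and features in them are uncertain.

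The 3 features with a Mup gene as host fell. Major urinary proteins are lipocalins made by male liver that carry pheromones in urine. Between and around Mup16, Mup17, Mup18 and Mup19, nc_intra_c4_3293 (350368 bases) had 0.243 RPKM in STAT5ca and 2.67 RPKM in control livers, a fold change of -11.7 (adjusted p = 2.64e-11) in the authors' deposited table. All 4 genes fell, with fold changes from -55.2 (Mup16) to -9.26 (Mup17) in the authors' deposited table. Around Mup7, Mup8 and Mup15, nc_intra_c4_3282 had 2.14 RPKM in STAT5ca and 14.2 RPKM in control livers, a fold change of -7.16 (adjusted p = 5.92e-06) in the authors' deposited table. Around Mup1, Mup9, Mup10 and Mup11, nc_intra_c4_37977 had 16.2 RPKM in STAT5ca and 77.3 RPKM in control livers, with a fold change of -5.09 (adjusted p = 5.11e-05) in the authors' deposited table. Its 4 genes had fold changes from -5.82 to -4.46 in that table, close to the value of the feature. All 3 features had lower levels per length than their host, by very different amounts: Mup11, host of the last, had 484 RPKM in STAT5ca and 2645 RPKM in control livers, and Mup8, host of nc_intra_c4_3282, had 3.01 RPKM in STAT5ca and 25.8 RPKM in control livers.

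The complement and steroid clusters gave smaller falls. nc_intra_c17_13875 overlaps both complement C4 genes and had 11.8 RPKM in STAT5ca and 41.5 RPKM in control livers, with a fold change of -3.7 (adjusted p = 7.14e-05) in the authors' deposited table. C4a, whose mouse product is the sex-limited protein, had a fold change of -3.89, and C4b one of -1.25 (adjusted p = 0.587) in the authors' deposited table, so the feature's value stood near that of C4a. The Hsd3b genes encode hydroxysteroid dehydrogenases. nc_intra_c3_2640, at Hsd3b2 and Hsd3b6, had 1.17 RPKM in STAT5ca and 3.22 RPKM in control livers (fold change -2.87, adjusted p = 0.00315, authors' deposited table). nc_intra_c3_2638, at Hsd3b5, had 0.171 and 0.423 RPKM in STAT5ca and control livers (fold change -2.57, adjusted p = 0.000433, authors' deposited table). The murinoglobulins are plasma protease inhibitors. nc_intra_c6_5591 spans Mug1 and Mug2 and had 7.35 RPKM in STAT5ca and 17.5 RPKM in control livers (fold change -2.51, adjusted p = 0.000281, authors' deposited table). Mug2, its host by overlap, had a fold change of -1.04 (adjusted p = 1.0) in the authors' deposited table, while Mug1 fell with a fold change of -2.67.

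A wide feature at Cyp2c genes, 1 at Cyp2b genes and 1 at Cyp4a genes rose. Another 5 features with a Cyp2c host did not pass the threshold, those in Cyp2c39 being at 0 in both groups. A feature in Cyp4a32 fell. Other wide features at P450 genes fell too, named here after their values were seen. nc_intra_c15_12771 at Cyp2d10 had a fold change of -2.61 (adjusted p = 7.6e-06). nc_intra_c15_12772 at Cyp2d13 and Cyp2d34 had one of -2.55 (adjusted p = 0.00014). nc_intra_c5_4750 at Cyp3a25 and Cyp3a59 had one of -2.43 (adjusted p = 0.0112), all in the authors' deposited table. The Cyp2c enzymes hydroxylate drugs and steroids. nc_intra_c19_15006, at Cyp2c40, Cyp2c67, Cyp2c68 and Cyp2c69, had 4.13 RPKM in STAT5ca and 0.766 RPKM in control livers, a fold change of 5.15 (adjusted p = 7.6e-16) in the authors' deposited table. Its genes spread widely around that value, with fold changes of 193 for Cyp2c69, 20.3 for Cyp2c40 and 1.96 for Cyp2c68, and -1.05 for Cyp2c67 (adjusted p = 1.0), in the authors' deposited table. nc_intra_c7_6001 lies at Cyp2b9 and Cyp2b13, steroid and drug hydroxylases, and had 0.328 RPKM in STAT5ca and 0.012 RPKM in control livers. Its fold change of 24.6 (adjusted p = 5.36e-17) stood between those of Cyp2b9 (35.5) and Cyp2b13 (24.1) in the authors' deposited table. nc_intra_c4_38596, at the fatty acid hydroxylases Cyp4a10 and Cyp4a31, had 2.38 RPKM in STAT5ca and 0.302 RPKM in control livers (fold change 6.92, adjusted p = 0.000806, authors' deposited table).

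The Sult2a genes encode hydroxysteroid sulfotransferases, and both features at them were at 0 in control livers. nc_intra_c7_5919 had 0.0723 RPKM in STAT5ca livers, about 418 reads, and nc_intra_c7_5920 had 0.0863 RPKM, about 904 reads. Taking 3 reads over the control group as the limit that a count of 0 allows (0.000791 and 0.000436 RPKM), their RPKM was at least 91.5-fold and at least 198-fold higher in STAT5ca livers, and such limits cover counting error only. The authors' deposited table gives fitted folds of 154 (adjusted p = 5.05e-06) and 57.6 (adjusted p = 0.00677). The second is below that limit, and fitted folds against a group at 0 depend on the settings of the fit, so neither size is firm. Sult2a1 had 3.33 RPKM in STAT5ca and 0.134 RPKM in control livers. At another cluster, nc_intra_c5_4726 at Cyp3a41b had 4.75 RPKM in STAT5ca and 2.33 RPKM in control livers and did not pass the threshold (fold change 1.94, adjusted p = 0.46, authors' deposited table), although Cyp3a41b itself had 27.3 RPKM in STAT5ca and 0.0399 RPKM in control livers.

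The lowest adjusted p of all 1322 features was that of nc_intra_c1_397, which is named after its value was seen. It has 32917 bases in 6 intervals from chr1:89921742 to 89966615 (mm9). Its host is Ugt1a10, a glucuronosyltransferase gene, and 8.12% of its bases lie within that gene's span. The feature had 0.692 RPKM in STAT5ca and 0.0137 RPKM in control livers, about 1579 and 20 reads, with a fold change of 46.2 (adjusted p = 2.09e-36) in the authors' deposited table. Ugt1a10 had 141 RPKM in STAT5ca and 125 RPKM in control livers (fold change 1.08, adjusted p = 1.0, authors' deposited table). The feature rose, with few reads in the control libraries, and its bright host did not pass the threshold. The intervals listed for Ugt1a10 run on to chr1:90116577, far past the end of the feature. The gene's level is therefore not that of bases near the feature alone.

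Some of the other wide features that rose lay at immune genes, chosen here after their values were seen. nc_intra_c18_14532 at the interferon-induced GTPase genes Gm4841 and Iigp1 had 2.11 RPKM in STAT5ca and 0.986 RPKM in control livers (fold change 2.03, adjusted p = 0.00348, authors' deposited table). nc_intra_c1_872 at Ifi203 and Ifi202b had 0.845 RPKM in STAT5ca and 0.375 RPKM in control livers (fold change 2.11, adjusted p = 0.0153, authors' deposited table). nc_intra_c14_12081 at Phf11b and Phf11d had 2.71 RPKM in STAT5ca and 0.944 RPKM in control livers (fold change 2.72, adjusted p = 0.000113, authors' deposited table). These 6 genes rose as well, while Gm4951 and Mndal, which the first and second of these features also overlap, did not pass the threshold (adjusted p = 0.669 and 0.0737, authors' deposited table). Among the features with no host, nc_intra_c17_29698 carries an accession of the MHC class I gene H2-Q5, and it had 1.27 RPKM in STAT5ca and 0.237 RPKM in control livers (fold change 5.06, adjusted p = 0.00536, authors' deposited table). Of the Kupffer cell markers 2 of 6 rose and of the lymphocyte markers 1 of 6, and their part in these results was not tested.

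**Figure D1:**
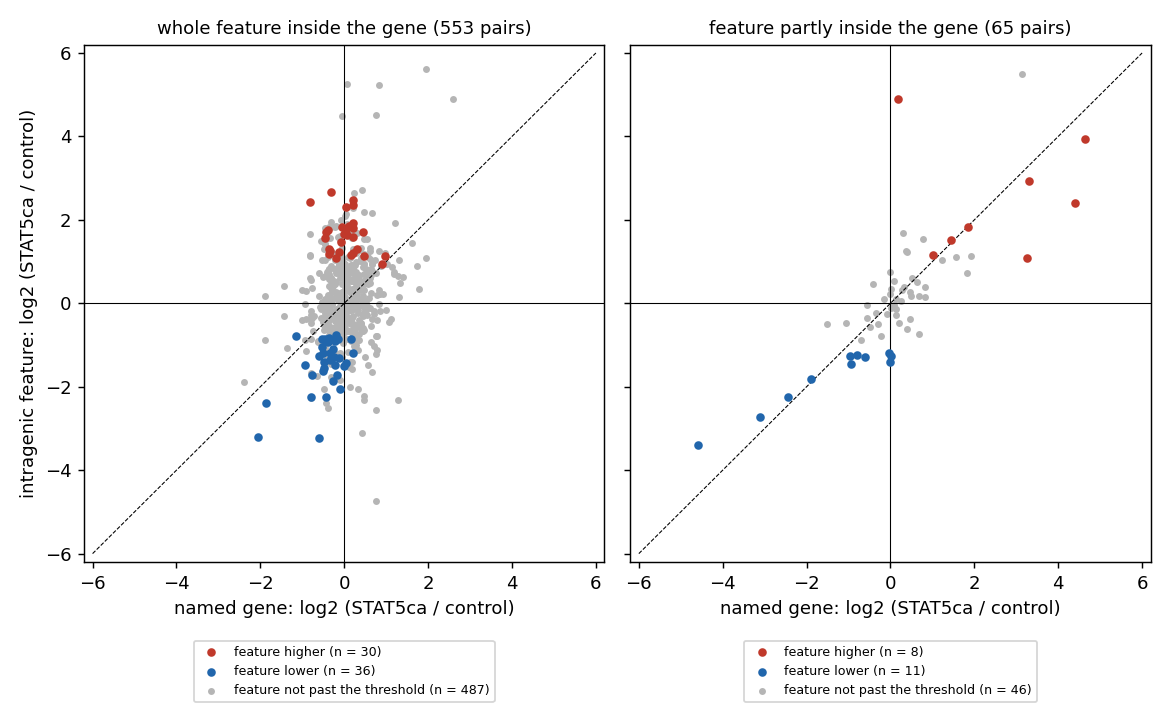
Log2 ratio of STAT5ca over control (RPKM + 0.01) of each intragenic feature on the y axis against that of its host gene on the x axis, for the 553 features wholly inside the gene on the left and the 65 partly inside it on the right, where both average 0.1 RPKM or more. Red points rose, blue points fell, grey points did not pass the threshold, and the dashed line marks equal ratios. Many called features on the right lie near the line. Those at Ugt1a10 and Mup19 lie well above it, Ugt1a10 the farthest, and those at Gm4841, Cyp2c40, Igsf3, Mug2 and Cyp3a59 well below it. Most called features on the left stand above or below a host ratio near 0.

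Inside single genes the ratios of feature and host went together less closely. Over the 553 pairs of a feature wholly inside its host in which both averaged 0.1 RPKM or more, Pearson's r of the log2 ratios was 0.27 and Spearman's rho 0.24. Over the 65 wide features it was 0.67 and 0.79. Pairs share libraries, and several features can share a host (415 and 64 hosts), so these are descriptions. Over the 197 pairs of both kinds with a feature of at least 1 RPKM, r was 0.55 and rho 0.51. Among features wholly inside a gene, r was 0.16 over 299 of 1 kb or more and 0.34 over 254 under 1 kb. A shorter feature holds fewer reads at the same RPKM, and the part of read number in these values was not tested. Over all 618 pairs the median log2 ratio was -0.0 for features and 0.01 for hosts, beside 0.06 over all features of the table at that level, and the median difference was -0.02 (quartiles -0.61 and 0.68). Features inside a gene had a median of 7.43% of the host's RPKM in STAT5ca and 5.89% in control livers.

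Most called features had a host that did not pass the threshold. Of the 50 that rose, 11 had a host that rose, 36 had a host that was not called and 3 had no host. Of the 48 that fell, 16 had a host that fell and 32 had one that was not called. Of the 748 hosts, 46 rose (6.15%) and 40 fell (5.35%), against 3.87% and 1.92% of all named genes. The hosts were brighter, with a median mean level of 4.97 RPKM against 0.239 RPKM over all named genes. Between 1 and 5 RPKM 7.82% of named genes rose and 3.12% fell, and at 5 RPKM or more 5.09% and 4.43%. The part of level in the share of hosts called was not tested. In the other direction, 99 uncalled features had a host that rose and 32 had a host that fell. If only features that touch a listed interval of a gene are given a host, 170 have one, and 4 instead of 27 called features share their host's direction. Whether a feature and its host changed by different amounts was not tested, since the table gives 1 value per group.

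Among features wholly inside a gene, those that fell were short and bright and those that rose were long and faint. The 37 that fell had a median length of 611 bases and a median mean level of 5.3 RPKM, in hosts with a median of 50.7 RPKM, and 12 lay in a host of 100 RPKM or more. The 35 that rose had a median length of 4558 bases and a median mean level of 0.469 RPKM, in hosts with a median of 2.94 RPKM, and 25 lay in a host under 5 RPKM. Of the 37, 34 had a host with a negative fold change, although 29 of the 37 lay in a host that was not called, and the median log2 fold was -1.38 for the features and -0.46 for the hosts. Of the 35 that rose, 17 had a host with a positive and 18 one with a negative fold change, and the median log2 fold was 1.61 for the features and -0.01 for the hosts. These folds are all from the authors' deposited table. The features were chosen as called and their hosts were not, so the choice favours larger folds in the features.

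**Figure D2:**
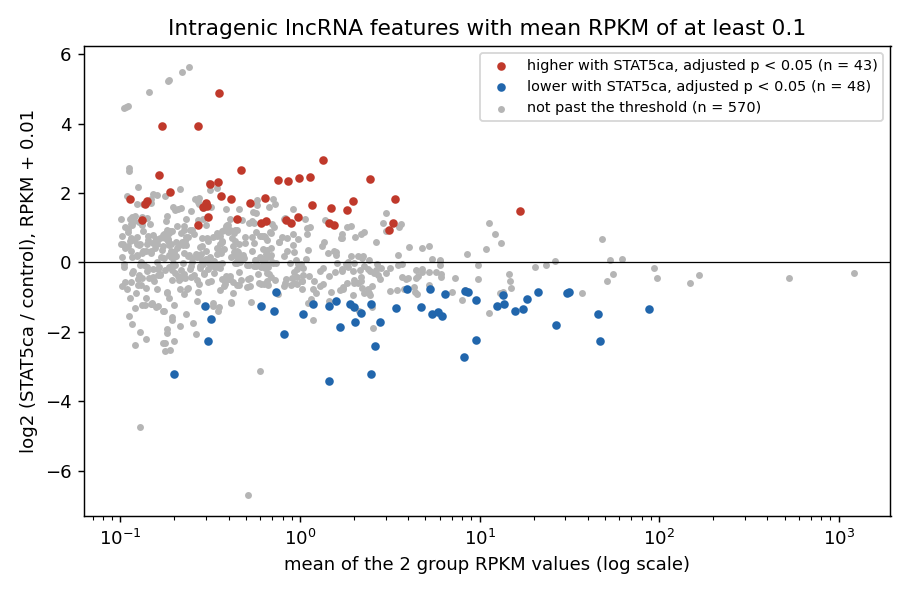
Mean of both group RPKM values on the x axis (log scale) against the log2 ratio of STAT5ca over control (RPKM + 0.01) on the y axis, for the 661 intragenic features that average 0.1 RPKM or more. The 43 red points rose, the 48 blue points fell and the 570 grey points did not pass the threshold. Above 5 RPKM 23 features are blue and 1 is red.

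The direction followed the level. Of 66 intragenic features with a mean of 5 RPKM or more, 23 fell (34.8%) and 1 rose. Between 1 and 5 RPKM, 17 of 140 fell (12.1%) and 12 rose (8.57%). At that level 15.5% of antisense features, 11.8% of intergenic features and 3.12% of named genes fell, and 9.05%, 10.7% and 7.82% rose. Between 0.1 and 1 RPKM, 8 of 455 fell (1.76%) and 30 rose (6.59%). There 6.1% of antisense features, 3.48% of intergenic features and 2.06% of named genes fell, and 3.43%, 5.06% and 10.4% rose. The lean to rises at this level was thus also seen in named genes. Other lncRNA features leaned the same way at the bright end: 11 of 44 antisense and 24 of 135 intergenic features (17.8%) of 5 RPKM or more fell, against 4.43% of 7401 named genes. The difference between these shares was not tested. At an average of 1 RPKM or more the median log2 ratio was -0.37 over 206 intragenic features, -0.27 over 276 antisense and -0.16 over 889 intergenic features, and 0.09 over 11699 named genes. Over the 197 pairs with a feature of at least 1 RPKM, the median feature ratio lay 0.45 below the host ratio on the log2 scale (difference -0.45), and the feature was below its host in 136 of them.

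**Figure D3:**
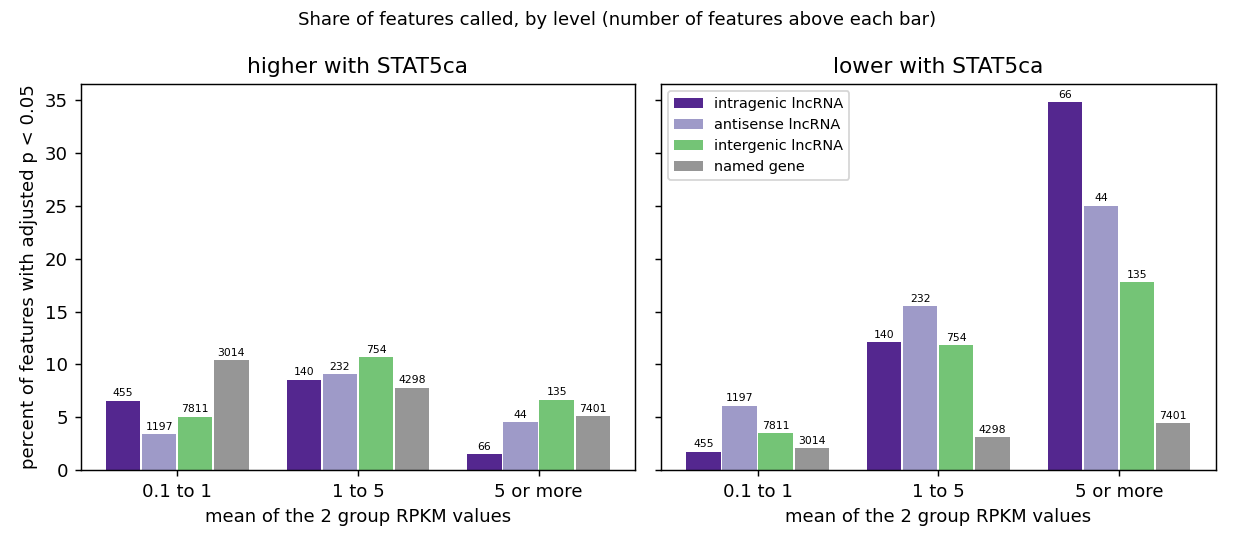
Share of features with an adjusted p under 0.05 (y axis, percent) by mean RPKM over both groups (x axis), for intragenic, antisense and intergenic lncRNA features and named genes, with those higher with STAT5ca on the left and those lower on the right. The number above a bar is the number of features in it. Among features of 5 RPKM or more, 34.8% of intragenic features and 4.43% of named genes were lower.

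Among intragenic features length went with direction as well. Shares over all features of like length were not computed, so this is not read as particular to intragenic features. Of 560 features under 1 kb, 3 rose and 26 fell, and the median log2 ratio of the brighter ones (0.1 RPKM or more) was -0.22. Of 491 features of 1 to 5 kb, 19 rose and 10 fell (median 0.01). Of 152 features of 5 to 20 kb, 13 rose and 1 fell (median 0.35). Of 117 features of 20 kb or more, 15 rose and 11 fell (median 0.38). Length, level and number of intervals move together, and their parts in the result were not tested apart: 25 of the 48 that fell had 2 intervals, against 8 of the 50 that rose.

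Of the 8 brightest features, 1 passed the threshold. nc_intra_c16_28040, of 117 bases in Ahsg (fetuin-A, a plasma protein), had 1086 RPKM in STAT5ca and 1345 RPKM in control livers, with an adjusted p of 0.725 in the authors' deposited table. It carries an accession of Ahsg itself. nc_intra_c16_13383, of 571 bases in Filip1l and Cmss1, had 449 RPKM in STAT5ca and 612 RPKM in control livers (adjusted p = 0.695, authors' deposited table). Filip1l itself had 8.11 RPKM in STAT5ca and 3.88 RPKM in control livers and rose (fold change 2.0, adjusted p = 0.016, authors' deposited table), while the feature, with a fold change of -1.42, stood far above it in level in both groups. The features in Cyp2f2, Gjb1, Slco1b2 and Fah had between 64.5 and 146 RPKM in STAT5ca and between 60.6 and 187 RPKM in control livers, and the adjusted p values of the authors' deposited table ran from 0.193 to 1.0. The one that fell was nc_intra_c10_18222 in Arg1, the arginase of the urea cycle. It had 49.9 RPKM in STAT5ca and 127 RPKM in control livers (fold change -2.68, adjusted p = 0.0013, authors' deposited table), while Arg1 had 290.3 RPKM in STAT5ca and 365 RPKM in control livers (fold change -1.33, adjusted p = 0.614, authors' deposited table).

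Of the 37 features that fell inside a gene, 36 had a larger fold than their host in the authors' deposited table, the exception being the feature in Ttll11 (fold change -1.79, against -2.33 for the gene). Of the 35 that rose inside a gene, 35 had a larger fold than their host. These features were chosen as called and their hosts were not, so the choice favours a larger fold in the feature. Over the 553 pairs inside a gene, called or not, the feature's log2 ratio was below its host's in 278. nc_intra_c18_31494 in Acaa2, a thiolase of mitochondrial fatty acid oxidation, had 3.2 RPKM in STAT5ca and 8.59 RPKM in control livers (fold change -2.8, adjusted p = 7.18e-06, authors' deposited table). Acaa2 had 144 RPKM in STAT5ca and 141 RPKM in control livers. nc_intra_c2_34452 in Hao1, the glycolate oxidase, had 1.51 RPKM in STAT5ca and 3.44 RPKM in control livers (fold change -2.39, adjusted p = 7.23e-06, authors' deposited table), against 67.8 and 58.5 RPKM for Hao1. nc_intra_c13_23538 in Zkscan3, a zinc-finger protein gene, had 2.86 RPKM in STAT5ca and 8.03 RPKM in control livers (fold change -2.92, adjusted p = 4.27e-05, authors' deposited table), against 46.9 and 54.5 RPKM for Zkscan3. nc_intra_c17_29874 in Slc29a1, a nucleoside transporter, had 1.31 RPKM in STAT5ca and 4.31 RPKM in control livers (fold change -3.44, adjusted p = 4.77e-08, authors' deposited table), and Slc29a1 fell too (fold change -1.8, adjusted p = 0.000566, authors' deposited table). nc_intra_c4_38599 in Cyp4a32 had 3.32 RPKM in STAT5ca and 15.8 RPKM in control livers (fold change -4.98, adjusted p = 0.011, authors' deposited table), with Cyp4a32 at an adjusted p of 0.617. Further features that fell, named here after their values were seen, lay in Insig1, Ass1, Gcgr, Sord and Aldh1l1, with fold changes from -2.93 to -1.99 in the authors' deposited table and hosts that were not called. The one in Ass1 carries an accession of the pseudogene Gm5424.

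nc_intra_c18_30761 in Ttc39c carries an accession of the microRNA gene Mir1948. It had 0.832 RPKM in STAT5ca and 4.42 RPKM in control livers, a fold change of -5.56 (adjusted p = 1.22e-12) in the authors' deposited table. Ttc39c had 110.1 RPKM in STAT5ca and 398 RPKM in control livers (fold change -3.85, adjusted p = 9.63e-08, authors' deposited table), so feature and host fell together. In all, 9 features carry a miRNA accession, and this is the one of them that passed the threshold. The mature miRNAs of 3 of the others, each with reads in both groups, are given from RefSeq (GRCm38.p6), with the seed (bases 2 to 8) in capitals, to show which miRNAs such features would cover.
mmu-miR-339-5p: uCCCUGUCcuccaggagcucacg
mmu-miR-339-3p: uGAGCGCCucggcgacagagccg
mmu-miR-3073a-5p: gUGGUCACaguuggcgccagcc
mmu-miR-3073a-3p: uUGAUGUCcacugugaccauag
mmu-miR-5123: uGUAGAUCcauaugccauggugug
No 2 of these share a seed. Mir339 belongs to nc_intra_c5_4691 in 3110082I17Rik, which had 0.599 RPKM in STAT5ca and 0.848 RPKM in control livers (adjusted p = 0.536, authors' deposited table). Mir3073a belongs to nc_intra_c12_23064 in Aspg, with 0.299 RPKM in STAT5ca and 0.461 RPKM in control livers (adjusted p = 1.0, authors' deposited table). Mir5123 belongs to nc_intra_c4_37669 in B4galt1, with 0.123 RPKM in STAT5ca and 0.0765 RPKM in control livers (adjusted p = 1.0, authors' deposited table). A value of such a feature counts polyadenylated RNA over its bases and not the mature miRNA.

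Rises inside single genes were mostly in genes that did not pass the threshold. nc_intra_c11_19881 in Egfr, the epidermal growth factor receptor, had 1.67 RPKM in STAT5ca and 0.302 RPKM in control livers, a fold change of 5.35 (adjusted p = 0.00261) in the authors' deposited table. Egfr had 33.3 RPKM in STAT5ca and 58.5 RPKM in control livers (fold change -1.84, adjusted p = 0.226, authors' deposited table), and its 4 other features had fold changes from 1.48 to 3.04 that did not pass the threshold. nc_intra_c8_7686 in Nrp1, a co-receptor for semaphorins and VEGF, had 3.07 RPKM in STAT5ca and 0.898 RPKM in control livers (fold change 3.22, adjusted p = 6.89e-07, authors' deposited table). Nrp1 had 13.6 RPKM in STAT5ca and 17.9 RPKM in control livers (adjusted p = 0.221, authors' deposited table). nc_intra_c3_2508 in Sh3d19 was the brightest that rose, with 24.7 RPKM in STAT5ca and 8.85 RPKM in control livers (fold change 2.62, adjusted p = 1.77e-05, authors' deposited table), above its host's 10.7 RPKM in STAT5ca and below its 11.3 RPKM in control livers. In Cyp7b1, the oxysterol hydroxylase, nc_intra_c3_35408 had 2.24 RPKM in STAT5ca and 0.747 RPKM in control livers (fold change 2.88, adjusted p = 0.00655, authors' deposited table). Cyp7b1 had 55.8 RPKM in STAT5ca and 76.2 RPKM in control livers (fold change -1.42, adjusted p = 0.971, authors' deposited table). Its other features went both ways, with fold changes from -2.23 to 3.09, and did not pass the threshold. nc_intra_c9_48616 in Rora, a nuclear receptor of the circadian clock, had 0.215 RPKM in STAT5ca and 0.0606 RPKM in control livers (fold change 3.37, adjusted p = 2.53e-09, authors' deposited table), with Rora at 4.25 and 4.26 RPKM. The features in Syne1 (fold change 3.56) and Mob1b (3.05) completed the 10 with the largest rise at a mean of 0.5 RPKM or more, in the authors' deposited table.

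Several features of 1 gene moved together in 7 hosts, always in the same direction. Naaladl2 holds 14 features, of which 4 rose. nc_intra_c3_2215 had 1.43 RPKM in STAT5ca and 0.273 RPKM in control livers (fold change 5.09), nc_intra_c3_2216 had 1.94 and 0.34 RPKM (5.07), nc_intra_c3_2224 had 5.27 and 1.49 RPKM (3.39), and nc_intra_c3_35481 had 0.439 and 0.139 RPKM (2.96), STAT5ca first and folds from the authors' deposited table. In STAT5ca livers all 4 were above Naaladl2 itself, which had 0.319 RPKM in STAT5ca and 0.274 RPKM in control livers (adjusted p = 1.0, authors' deposited table). Another 10 features of the gene did not pass the threshold. Tmcc3 holds 10 features, of which 3 rose. nc_intra_c10_9159 had 0.586 RPKM in STAT5ca and 0.11 RPKM in control livers (fold change 4.98), nc_intra_c10_9161 had 0.224 and 0.0583 RPKM (3.57), and nc_intra_c10_9168 had 0.118 and 0.051 RPKM (2.19), again from the authors' deposited table. Tmcc3 had 2.62 RPKM in STAT5ca and 2.53 RPKM in control livers. In all 10 features of Tmcc3 the level was higher in STAT5ca livers. Both features of Fmo5, of Kyat1 and of Ddi2 and 2 of 3 of Pbld1 fell, with fold changes from -3.84 to -1.89 in the authors' deposited table. Those of Pbld1 carry an accession of Pbld1 itself. Neighbouring features share their gene, so they are not separate observations of it.

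**Figure D4:**
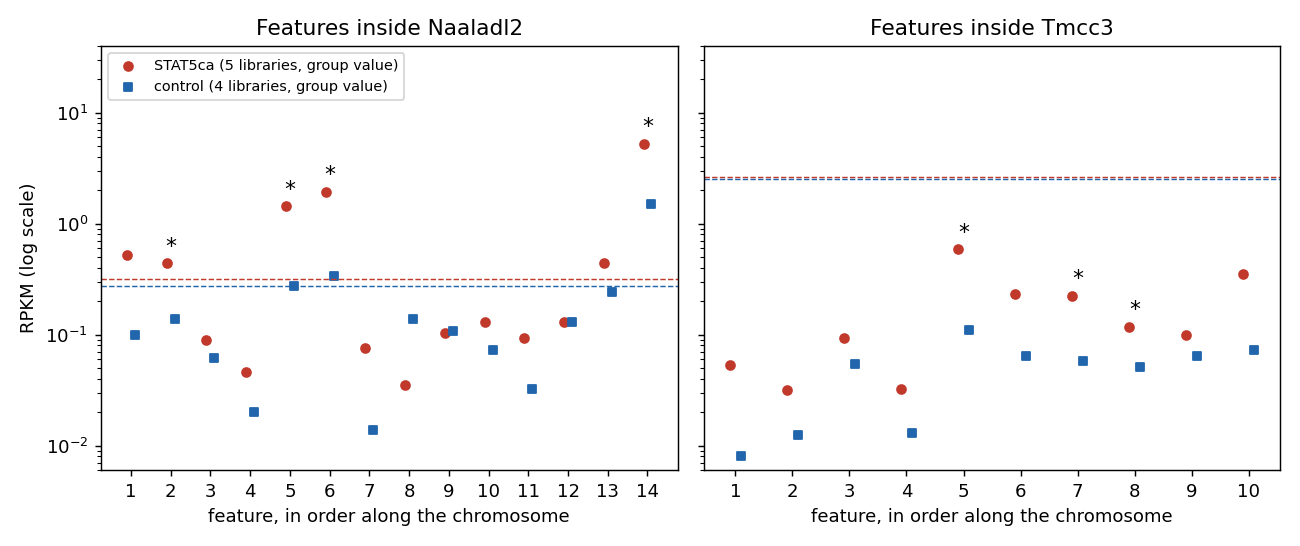
RPKM (log scale) of the 14 features inside Naaladl2 and the 10 features inside Tmcc3, in order along the chromosome, as red circles for STAT5ca and blue squares for control group values, with asterisks at those with an adjusted p under 0.05. Dashed lines give the level of the gene itself in each group, and the control value of 0 of the first Tmcc3 feature is drawn near the bottom of the axis. In Naaladl2 3 features stand above the gene's own level in STAT5ca livers by more than 4 times.

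The features of the genes that hold the most of them were faint. Lsamp held 36, Ank2 34, Mecom 23, and Inpp4b and Srpk2 20 each, and 0 of their features rose or fell by the authors' edgeR test. Those in Srpk2 carry an accession of Srpk2 itself. Between 6 (Srpk2) and 22 (Ank2) of the features of each of these 5 genes were at 0 in both groups, and the brightest in any of them averaged 0.571 RPKM. Of these hosts, Ank2 had 0.296 RPKM in STAT5ca and 0.105 RPKM in control livers and rose (fold change 2.63, adjusted p = 1.8e-05, authors' deposited table), and Inpp4b had 0.251 and 0.0571 RPKM and rose too (fold change 4.06, adjusted p = 6.2e-06, authors' deposited table).

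Counted by list, the hosts held few of the known genes. The lists cannot serve as independent evidence, since earlier results were known when they were written. Over all named genes 3.87% rose and 1.92% fell, and over all features 2.34% and 1.49%, not matched to the lists for level. Of 41 female-biased liver genes, 29 rose and 1 fell, and 5 were hosts of 6 features, of which 4 rose and 0 fell. These 4 are wide features at gene clusters, and 2 of them share the host Sult2a1. The male-biased list has 46 genes (2 risen, 23 fallen), and 6 were hosts of 17 features, of which 2 rose (in Egfr and Cyp7b1) and 3 fell (in Bcl6 and the Hsd3b genes). Of 54 interferon response genes, 47 rose and 1 fell, but 2 were hosts of 1 feature each, which did not pass the threshold: the feature in Parp14 had 0.807 RPKM in STAT5ca and 0.29 RPKM in control livers, and that in Irgm2 0.621 and 0.372 RPKM. The 14 hosts among drug, steroid, lipid and bile acid genes held 17 features with 0 called, and of the list's 74 genes 4 rose and 10 fell. The 7 hosts among plasma protein genes held 8 features with 1 fallen (at Mug2), and 7 of the list's genes rose and 3 fell. The 3 hosts on the growth hormone list held 9 features with 1 fallen (in Bcl6), and 8 of that list's genes rose and 3 fell. The 2 hosts on the clock list held 3 features with 1 risen (in Rora), and of that list's 20 genes 0 rose and 5 fell. In Ciart, a clock gene that fell, the feature had 1.08 RPKM in STAT5ca and 4.01 RPKM in control livers and did not pass the threshold (adjusted p = 0.207, authors' deposited table).

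The authors also mark 74 of the features as antisense within a gene in their descriptions, and 1246 as intragenic only. Of the 74, 3 rose and 4 fell (9.46%), and of the 1246, 46 rose and 44 fell (7.22%). The antisense ones were longer, with a median of 58993 bases against 1204. Over 34 pairs of such a feature and its host with both at 0.1 RPKM or more, the median log2 ratio was -0.09 for features and 0.38 for hosts, and the feature was below its host in 24. For the 582 pairs marked intragenic only, the medians were 0.01 and -0.0. This difference was not tested.

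Values of single libraries could be recovered for faint features, since a low RPKM is a mean of whole reads over libraries. For 821 features this worked in both groups, 228 of which had no read in either. In 228 of these with 10 to 40 reads in all, the STAT5ca and control libraries did not overlap in 11 (4.82%), 5 higher (2.19%) and 6 lower (2.63%). Over all 6061 lncRNA features with as many reads it was 5.25%, with 2.74% higher and 2.51% lower, so the share was near the background. Among the 5 higher, the feature in Hdac1 had 4, 4, 5, 8 and 5 reads in STAT5ca and 2, 1, 0 and 2 reads in control libraries, in order of depth. Its authors' adjusted p was 0.355 in their deposited table. The feature in Nkain2 had 4, 3, 4, 2 and 2 reads in STAT5ca libraries and 0, 0, 0 and 1 in control libraries, and that in Aldh1a1, a retinal dehydrogenase, had 2, 2, 2, 4 and 2 reads and 0, 0, 0 and 1. Among the 6 lower, the feature in Kif2a, a microtubule motor, had 1, 2, 2, 1 and 2 reads in STAT5ca and 4, 4, 3 and 4 in control libraries.

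Of the called features, 6 had their reads recovered in every library, and all 6 fell. Recovery stopped at 40 reads in the STAT5ca and 60 reads in the control group, so faint features that rose were less open to it. The shared direction of the 6 is therefore not read as a result. nc_intra_c11_21284 in Dusp3, a phosphatase, had 2, 3, 5, 2 and 5 reads in STAT5ca and 7, 18, 16 and 5 reads in control libraries. That is 0.310 ± 0.125 RPKM in STAT5ca (SD, n = 5) and 1.32 ± 0.744 RPKM in control livers (SD, n = 4). The groups did not overlap, and a two-sided exact permutation test of the means gave p = 0.0159, the smallest that 5 against 4 libraries allow. The features in Vasn (0.542 ± 0.204 RPKM in STAT5ca, 1.54 ± 0.539 in control), Slc12a5 (0.152 ± 0.124 and 0.490 ± 0.133) and Rmc1 (0.1 ± 0.0503 and 0.516 ± 0.321) did not overlap between groups either and had the same exact p of 0.0159. The features in Pbld1 (0.721 ± 0.698 in STAT5ca, 2.64 ± 0.743 in control) and Tns1 (0.0302 ± 0.0544 and 0.366 ± 0.299) overlapped in 1 STAT5ca library each, with an exact permutation p of 0.0317. These 6 tests were not adjusted, and the features were chosen because the same libraries had called them, so they describe the spread and add no evidence. The log2 ratio in Tns1 was -3.23, and it was -4.52 without the deepest STAT5ca library and -2.6 without control library 2. In Pbld1 it was -1.86, and -2.53 without the shallowest STAT5ca library. In Slc12a5 it was -1.63, and -2.21 without that same library.

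**Figure D5:**
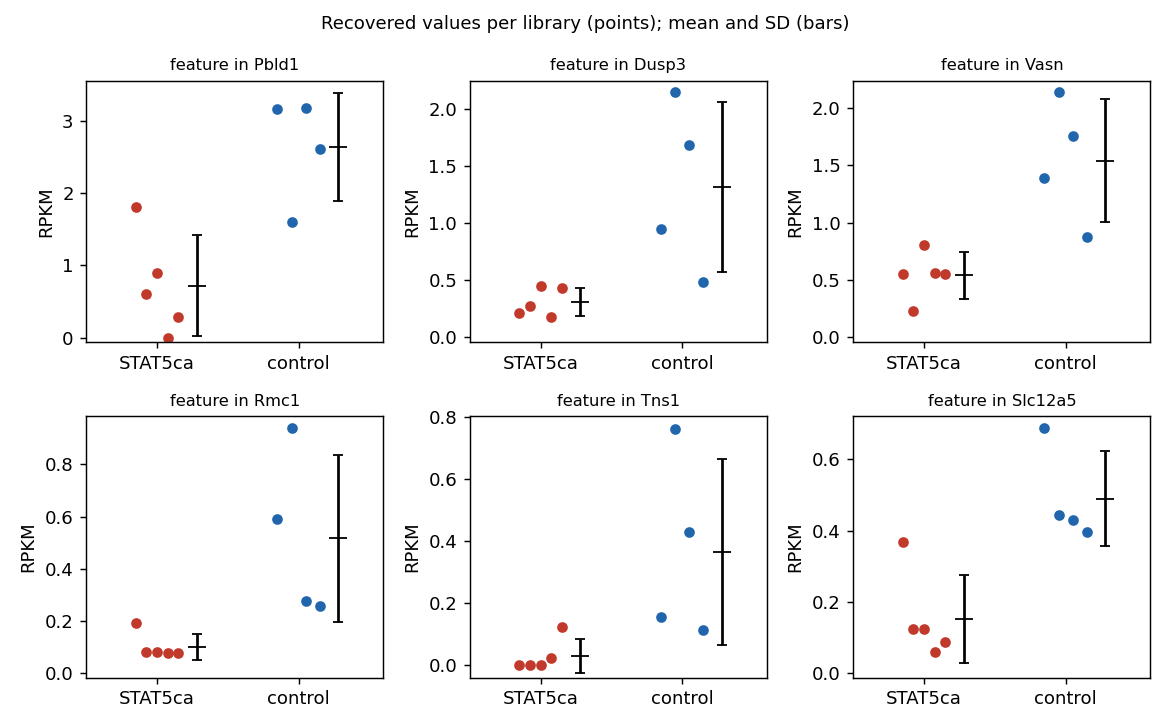
RPKM recovered in each library (y axis) for the 6 called features whose reads were recovered in all libraries, with 5 STAT5ca libraries in red on the left and 4 control libraries in blue on the right of each panel, and the mean and SD beside them. Points run from the shallowest to the deepest library. In the panels for Dusp3, Vasn, Rmc1 and Slc12a5 all 5 STAT5ca libraries lie below all 4 control libraries.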

How the data were processed

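Nuclear polyadenylated RNA was sequenced with a strand-keeping kit, per the labels' protocols. The deposited RPKM values are 1 per feature and group, made by the authors with both times pooled. Reads were aligned to mm9 with STAR and counted with featureCounts, and edgeR was used, per the submitters' processing notes; no version or strand setting is given there. The signed fold change, treated as a score, and the adjusted p-value (headed as from edgeR) are the authors' own, as deposited. The sample titles number the males, 1 per library. Since no counts per library are in the table used here, the authors' calls at 0.05 took the place of a new fit, and no SD can be given for most values.

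Members were matched to named genes on mm9 intervals, with 1 base added to each start, since starts count from 0. Location cells are cut at 1024 characters (2 members and 3 named genes). Log2 ratios used RPKM + 0.01, and medians used features with a mean of 0.1 RPKM or more. Reads per library were recovered where a low value fitted a single set of whole reads (at most 40 reads in the STAT5ca and 60 in the control group): this held for 95.1% of 595 low values in STAT5ca and 95.9% of 652 in control, against at most 0.56% and 0.256% with lengths changed by 1 to 3 bases for lncRNA features of 1 interval. The recovery was tested on simulated data. For the 6 called features recovered, means were compared with two-sided exact permutation tests. Intervals and limits cover counting error only.

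Features named are the 10 largest called folds in each direction at 0.5 RPKM or more, the 8 brightest, called ones in a host of opposite call (0 found), 6 called ones in an uncalled host, the 5 hosts with most features, and called ones in hosts on gene lists; others are said to be chosen after their values were seen. One of the brightest is not reported here. Members and lists were chosen with earlier results of these data known. Python 3.11.15, pandas 2.3.3, numpy 2.4.6, scipy 1.17.1 and matplotlib 3.10.9 were used. Alternatives were an adjusted p of 0.01, a fold of 2, other level limits, a pseudocount of 0.1 and other host rules.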

Additional observations from a re-analysis of the deposited data

Results flagged for a closer look

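Recovered values per library were examined in 31 groups of 16 features, and in 8 groups 1 library stood apart from the others by the gap to its nearest neighbour. Chance gives about 1 in 20 groups for continuous values. These are counts of a few reads, for which that rate was not measured: 1 read beside libraries at 0 is set apart by construction, and the features were chosen as called or as not overlapping between groups. The deepest STAT5ca library had 0.125 RPKM (5 reads) for the feature in Tns1, with the other four at 0 or 1 read. The shallowest STAT5ca library had 0.19 RPKM (2 reads) for the feature in Rmc1, with 1 read in each of the others. For the feature in Slc12a5 the shallowest STAT5ca library had 0.368 RPKM (10 reads) and the shallowest control library 0.688 RPKM (15 reads), both the highest of their group. The feature in Aldh1a1 had 0.322 RPKM (4 reads) in 1 STAT5ca library and 0.0893 RPKM (1 read) in 1 control library. The feature in Nkain2 had 0.00981 RPKM (1 read) in 1 control library, with the other three at 0. The feature in Hdac1 had 1.64 RPKM (8 reads) in 1 STAT5ca library. The cause of these values was not tested.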

How the results depend on the processing

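Under most alternatives the medians moved little, while many counts fell. With only features that averaged 1 RPKM or more, 13 instead of 50 features were higher, the median log2 ratio of features was -0.37 instead of 0.03, and, with feature and host both at that level, the median difference was -0.46 instead of -0.02. At an adjusted p under 0.01, 36 instead of 50 features were higher and 30 instead of 48 lower. Of the hosts 32 instead of 46 were higher and 26 instead of 40 lower, and 19 instead of 27 called features shared their host's direction. With a fold of at least 2, 38 features were lower, 32 hosts were higher and 17 lower, and 16 called features shared the direction of their host. With only genes that contain the whole feature that count was 10, with 31 hosts higher and 28 lower. With only features in exactly 1 gene it was 12, with 29 hosts higher and 31 lower. With the listed intervals of genes in place of their span, chosen after seeing the data, 6 hosts were higher, 4 lower, 4 features shared their host's direction, and the median difference was -0.13; this rule gives fewer features a host by construction. For the other changes the cause was not tested. Of 41 named features 5 did not pass an adjusted p of 0.01, and all 41 kept their sign as log2 ratios with a pseudocount of 0.01 or 0.1. Hosts on the feature's own strand and leaving out libraries for group values were not run, since the table gives neither strand nor libraries. No paired analysis was possible because the table gives 1 value per group. Of the 661 features under 0.1 RPKM, 228 had no read in either group, and 7 were higher (1.06%) and 0 lower by the authors' edgeR test. At that level 0.452% of antisense features, 0.289% of intergenic features and 0.275% of named genes were higher, and 0.264%, 0.134% and 0.0236% were lower.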
